A study of Mus musculus with 6 samples.

Results

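The endoplasmic reticulum (ER) is where secreted and membrane proteins are made, and 49 genes that serve it were followed here among the 54532 genes of the deposited table. They were taken by gene name from a list with 8 roles: lumenal chaperones, their co-chaperones and stress-secreted partners, disulfide isomerases, collagen chaperones with prolyl isomerases, sensors and transcription factors of the unfolded protein response, the translocation and signal peptide machinery, ER exit and retrieval, and ER-associated degradation. All 49 names occurred once, and 48 passed the filter on low values, which asked for at least 1 FPKM (fragments per kilobase of gene length, scaled for library size) in at least 3 of the 6 libraries. Derl3, a derlin of ER-associated degradation, was the member left out, with 5 to 14 fragments per library.

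RNA came from cultured stromal cells of compact bone from femur and tibia of mice, sorted for the fluorescent Cre reporter. Every mouse carried Prx1-Cre, a driver active in limb mesenchyme, and the ROSA-YFP reporter, and the cells were untreated. The 3 WT libraries had the genotype Zeb1wt/wt and the 3 Zeb1Prx1 libraries Zeb1fl/fl, in which Cre deletes Zeb1, a zinc-finger repressor known from epithelial-mesenchymal transition. The age and sex of the mice, and whether replicates were separate mice or cultures, are not given in the labels, so the tests measure only the spread between these libraries, which may be technical.

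A nascent secretory protein enters the ER through the Sec61 channel, helped by the translocon-associated protein complex, and loses its signal peptide to the signal peptidase. Chaperones of the Hsp70 and Hsp90 families, lectin chaperones, disulfide isomerases and prolyl isomerases then fold it, COPII coats carry it out, KDEL receptors bring escaped chaperones back, and misfolded protein is sent to the proteasome. When unfolded protein accumulates, the sensors encoded by Ern1 (IRE1), Eif2ak3 (PERK) and Atf6 induce chaperone genes, in part through the spliced form of Xbp1. Cells of bone and cartilage secrete large amounts of collagen and lean on this machinery, with Serpinh1 (HSP47) and Fkbp10 as chaperones of procollagen.

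Many of these genes are known targets of ATF6 and XBP1 through the ER stress response element (ERSE), so the promoters of the members are shown first. RefSeq gave promoter windows (GRCm38.p6, 250 bases before to 50 after a start site) for 40 of the 49 members, 44 windows in all. The ERSE, searched on both strands as CCAAT, any 9 bases and CCACG, was present in 9 of the 40 members (22.5%) and in 0.137% of all 27025 genes with a window. The related element ERSE-II, searched as ATTGG, any 1 base and CCACG, was found in Dnajb11 and in 0.0444% of all genes. The shorter element of the unfolded protein response (UPRE), searched as TGACGTGG, was found in Kdelr3, Sec23a and Sec24d (7.5%) and in 0.714% of all genes. No 2 of these motifs overlapped in a member. A match describes letters and not binding, and a window without a match says only that these letters are not in it.

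The ERSE matches are printed 5′ to 3′ in the direction of the motif, with the motif in capitals and 10 flanking bases on each side, because they mark the members that carry the classical element. Hsp90b1 holds the motif at 2 places, one on each strand.
Hspa5, chr2:34772015-34772053, + strand: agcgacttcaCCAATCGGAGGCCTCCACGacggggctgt
Hsp90b1, chr10:86705523-86705561, + strand: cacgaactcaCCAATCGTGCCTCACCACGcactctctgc
Hsp90b1, chr10:86705628-86705666, - strand: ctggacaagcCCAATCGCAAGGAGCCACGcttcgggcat
Calr, chr8:84847065-84847103, + strand: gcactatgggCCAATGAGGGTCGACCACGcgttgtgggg
Canx, chr11:50325790-50325828, - strand: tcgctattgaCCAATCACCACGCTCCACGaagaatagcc
Pdia6, chr12:17266481-17266519, + strand: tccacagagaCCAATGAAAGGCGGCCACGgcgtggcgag
Creld2, chr15:88819510-88819548, - strand: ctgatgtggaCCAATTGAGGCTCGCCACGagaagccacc
Dnajc3, chr14:118937817-118937855, + strand: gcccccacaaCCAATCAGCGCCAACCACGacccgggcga
Syvn1, chr19:6046522-6046560, + strand: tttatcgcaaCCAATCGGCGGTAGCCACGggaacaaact
Derl3, chr10:75893232-75893270, - strand: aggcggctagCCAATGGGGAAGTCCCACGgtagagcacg

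The UPRE matches of a KDEL receptor and of a COPII coat gene lay close before the RefSeq start site.
Kdelr3, chr15:79516368-79516395, - strand: ggccgcgcggTGACGTGGcggggcggcc
Sec24d, chr3:123267460-123267487, + strand: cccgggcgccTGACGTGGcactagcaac

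To set the member with the largest change beside the best-known ERSE gene, the 250 bases before the start are printed for both. For Fkbp11, which has 2 windows, this is the one that abuts the start of the gene in the deposited table. In Hspa5 the capitals mark the ERSE; the window is placed on the RefSeq start, which lies inside the gene as the deposited table has it, and neither Fkbp11 window holds any of the 3 motifs.
Hspa5, chr2:34771840-34772089, + strand: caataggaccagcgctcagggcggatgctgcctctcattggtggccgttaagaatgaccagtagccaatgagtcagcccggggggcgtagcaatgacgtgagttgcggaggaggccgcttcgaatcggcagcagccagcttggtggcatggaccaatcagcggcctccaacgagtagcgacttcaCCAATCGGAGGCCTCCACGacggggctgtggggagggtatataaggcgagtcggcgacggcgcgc
Fkbp11, chr15:98728199-98728448, - strand: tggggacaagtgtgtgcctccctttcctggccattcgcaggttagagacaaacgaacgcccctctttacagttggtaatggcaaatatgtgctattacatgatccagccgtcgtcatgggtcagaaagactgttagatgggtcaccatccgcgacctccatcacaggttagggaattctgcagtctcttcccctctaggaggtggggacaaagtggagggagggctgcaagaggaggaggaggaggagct

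The libraries held 14724357 to 18354894 assigned fragments, of which 155372 to 235521 fell on the members. Zeb1, which checks the labels, had WT values of 6.61, 10.3 and 7.12 FPKM beside Zeb1Prx1 values of 1.92, 1.59 and 2.84. Zeb1Prx1 replicate 2 stood apart from the others: its FPKM summed to 372566 against 278987 to 312038 elsewhere, and short genes were high and long genes low in it, more so than in the other Zeb1Prx1 libraries. Among all tested genes with a deposited length of up to 2000 bases, the median log2 difference from the WT mean was 0.57 in this library, 0.08 in replicate 1 and 0.20 in replicate 3, and over 5000 bases it was -0.31, -0.04 and -0.11. Xist, of the inactive X chromosome, had 26.8 to 40.4 FPKM in WT and 0.0031 to 12.6 in Zeb1Prx1. The part of sex in the differences was not tested. Although the cells were sorted, 20 macrophage and monocyte genes took 4.16% to 6.37% of the summed FPKM in the 6 libraries, beside 0.795% to 1.82% for 10 stromal genes.

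Many of the ER genes lay above the whole WT range in all 3 Zeb1Prx1 libraries, most of them genes of translocation, collagen chaperones or prolyl isomerases, but no single member passed the test over all genes. The genotypes did not overlap, with Zeb1Prx1 higher, for 19 of 48 tested members (39.6%), where the same held for 12.6% of all 12534 tested genes and for 17.1% of 1436 genes within the middle range of the members’ levels. With Zeb1Prx1 lower this held for 1 member, Edem1, against 11.8% of all genes. By limma, 0 members had an adjusted p under 0.05 (smallest 0.229), as did 0 of all genes (0%), and voom on recovered fragments also called 0. Weighting the libraries by their spread called 447 genes and 7 members: Serpinh1, Fkbp10, Fkbp11, Sec61b, Ssr2, Kdelr2 and Kdelr3, each higher (limma adjusted p 0.0361 to 0.0498). The weights of Zeb1Prx1 replicates 1, 2 and 3 were 0.655, 0.226 and 2.82, so the Zeb1Prx1 level in that run rested mostly on replicate 3. At an unadjusted limma p under 0.05 there were 14 members higher, where the share of all genes was 8.15%, and 0 lower, against 6.98% of all genes. The log2 change, Zeb1Prx1 minus WT on log2(FPKM + 1), was above 0 for 43 of 48 members with a median of 0.32, beside 51.9% and a median of 0.02 for all tested genes. With each library set to the same FPKM sum, 33 of 48 were above 0 with a median of 0.16, beside -0.12 for all genes. In these bulk libraries, more RNA per cell and a larger share of secretory cells cannot be told apart.

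**Figure D1:**
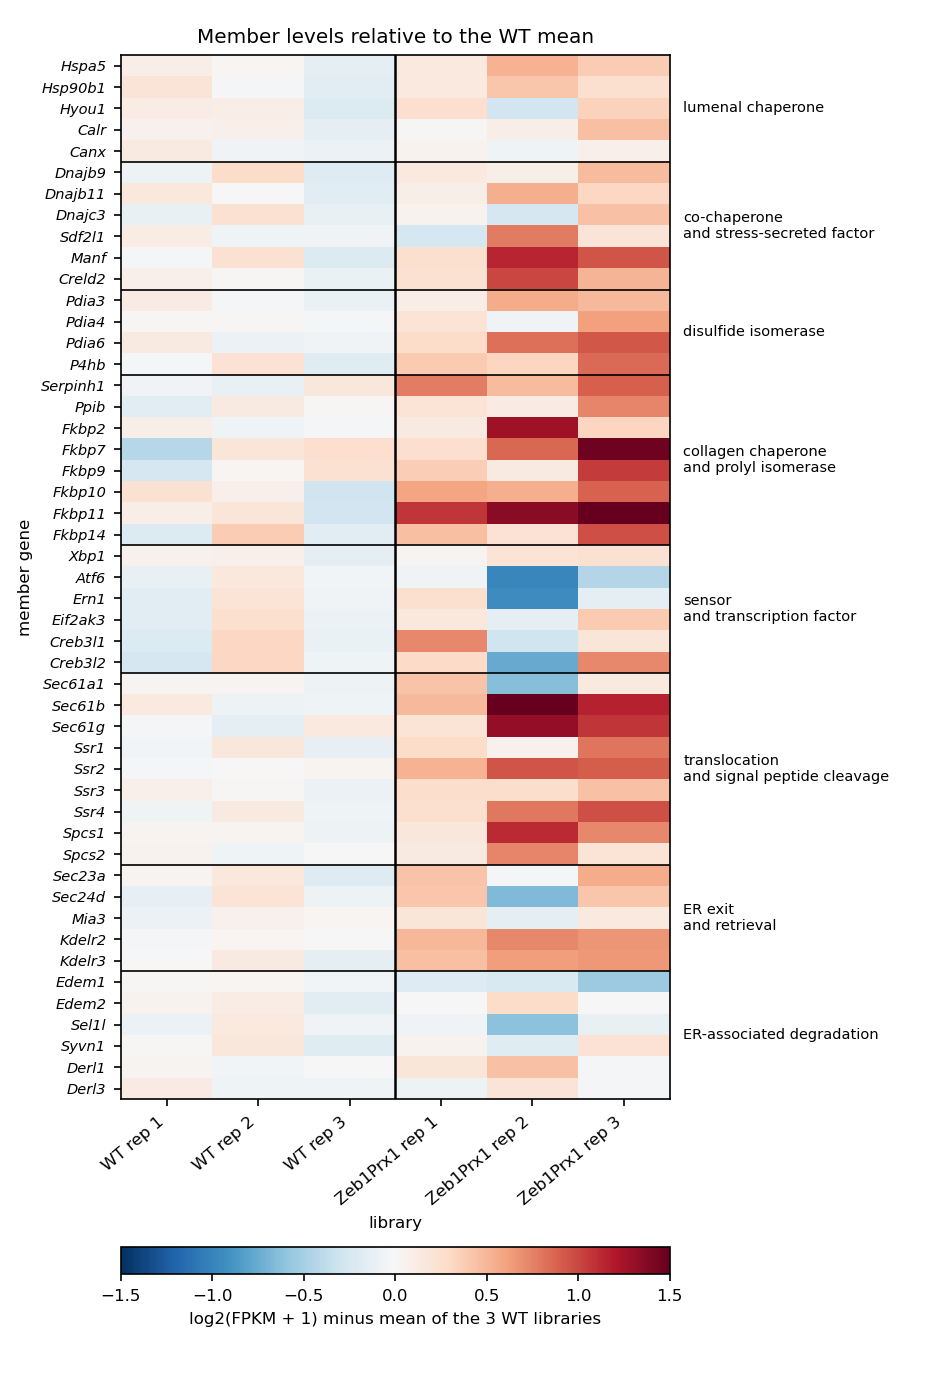
Level of all 49 members (rows, grouped by role) in the 6 libraries (columns), as log2(FPKM + 1) minus the mean of the 3 WT libraries; red is above and blue below that mean. Most translocation genes and prolyl isomerases are red across the Zeb1Prx1 libraries, while Atf6, Ern1, Creb3l2, Sec61a1 and Sec24d are blue in Zeb1Prx1 replicate 2.

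The counts differed by role. Of the 9 translocation and signal peptide genes 7 lay higher in every Zeb1Prx1 library, of the 8 collagen chaperones and prolyl isomerases 5, of the 4 disulfide isomerases 2, of the 6 co-chaperones and partners 2, of the 5 exit and retrieval genes 2 and of the 5 lumenal chaperones 1. Neither the 6 sensors and transcription factors nor the 5 tested degradation genes had such a member. The median log2 change of these roles was 0.67, 0.63, 0.45, 0.28, 0.32, 0.18, 0.11 for the sensors and 0.03 for degradation. These counts do not take gene length into account. The 7 translocation genes had deposited lengths of 1271 (Sec61b) to 4221 (Spcs2) bases. The other translocation genes, Sec61a1 and Ssr1, had 6732 and 10431 bases. The sensors and transcription factors had 2603 (Creb3l1) to 9231 (Atf6). Among all tested genes, 22.9% of those up to 2000 bases were higher without overlap, against 4.81% of those over 5000. Differences between the roles, and the part of gene length in them, were not tested.

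**Figure D2:**
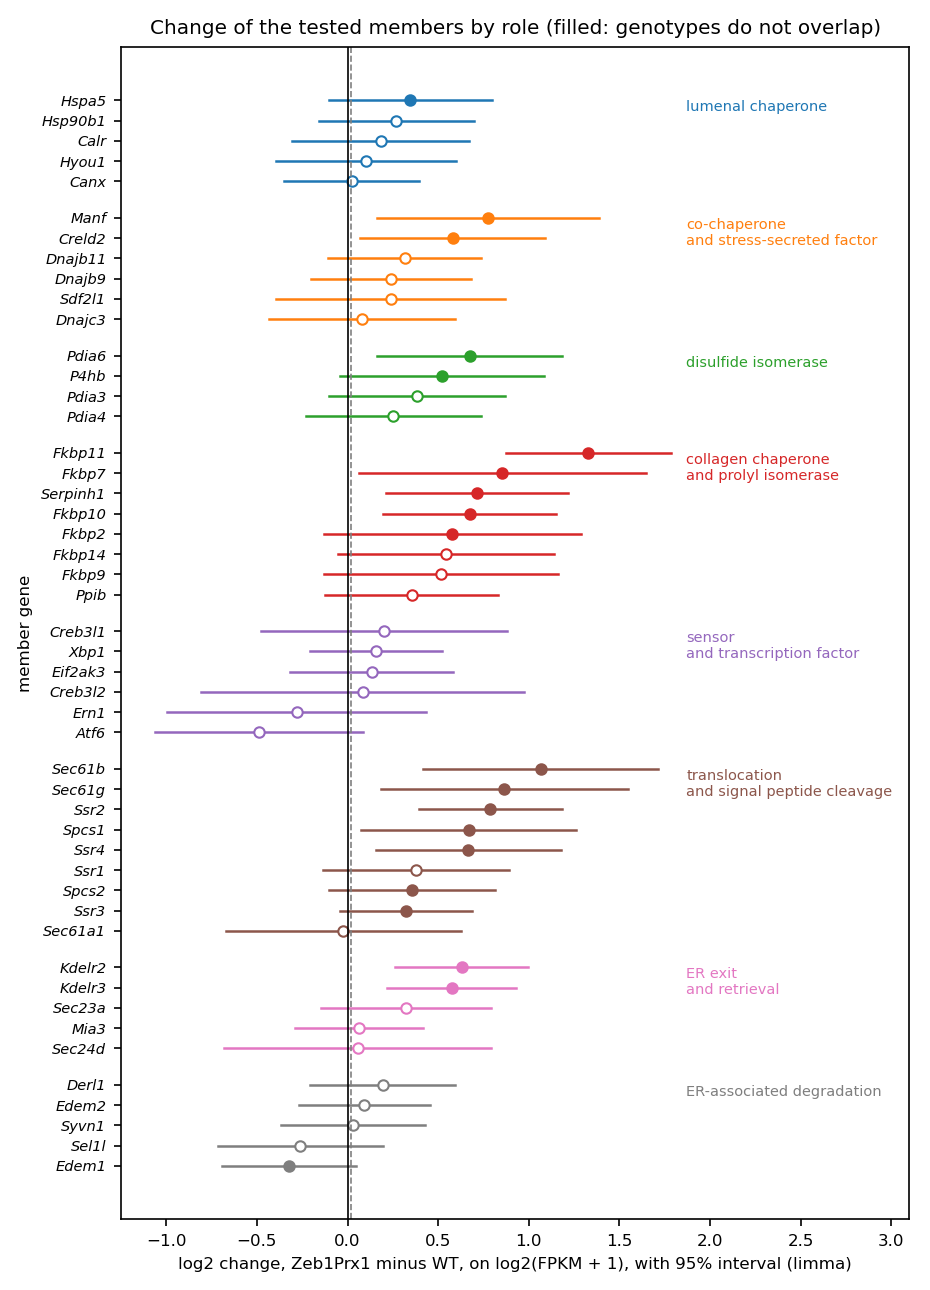
Log2 change (Zeb1Prx1 minus WT, on log2(FPKM + 1)) of the 48 tested members with its 95% interval from limma, grouped by role; filled points mark members whose genotypes do not overlap, and the dashed line is the median of all tested genes (0.02). Fkbp11 lies farthest right at 1.33, and the sensors and degradation genes scatter around 0.

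The channel and its partners were the role with the largest median. Sec61b, the beta subunit of the Sec61 channel (ENSMUSG00000053317, mm10 chromosome 4, 47474658 to 47483242), had WT values of 27.1, 23.0 and 23.2 FPKM beside Zeb1Prx1 values of 34.5, 73.6 and 55.4, a log2 change of 1.07 (SE 0.27, adjusted p = 0.272). Every Zeb1Prx1 library was above the WT range, replicate 1 least so. Sec61g, the gamma subunit, had 9.89, 9.03 and 11.2 against 11.7, 26.4 and 22.1 FPKM, a log2 change of 0.87 (SE 0.29). Replicate 1 of Zeb1Prx1 lay close to the highest WT library for this gene. Sec61a1, which encodes the channel pore itself, did not share the pattern, with 28.8, 28.8 and 26.4 FPKM in WT against 37.9, 17.6 and 31.0 in Zeb1Prx1. For the pore gene replicate 2 was the lowest of all libraries and replicates 1 and 3 were the highest. The deposited length of Sec61a1 was 6732 bases, beside 1271 for Sec61b and 2464 for Sec61g. The part of gene length in the difference between these subunits was not tested.

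The 4 subunits of the translocon-associated protein complex are encoded by Ssr1 to Ssr4. Ssr2 (ENSMUSG00000041355, chromosome 3, 88575876 to 88588419) had WT values of 33.8, 34.2 and 35.4 FPKM beside Zeb1Prx1 values of 49.8, 67.1 and 65.4, a log2 change of 0.79 (SE 0.17, adjusted p = 0.258). Its WT libraries differed by less than 2 FPKM and all Zeb1Prx1 libraries were far above them. Ssr4, which is X-linked, had 30.2, 34.8 and 30.3 against 37.6, 55.8 and 62.8 FPKM (0.67, SE 0.22). Ssr3, the most abundant subunit per length, had 91.7, 88.2 and 82.1 against 105.0, 104.8 and 118.5 FPKM (0.32, SE 0.15). Ssr1 overlapped between the genotypes, at 22.3 to 27.4 against 25.4 to 43.0 FPKM.

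Both signal peptidase subunits among the members were higher in every Zeb1Prx1 library. Of the subunits outside the list, Sec11a was higher without overlap, while Spcs3 and Sec11c overlapped between the genotypes (log2 change 0.40, 0.05 and 0.18). Spcs1 had WT values of 52.8, 52.7 and 48.7 FPKM beside Zeb1Prx1 values of 57.7, 112.5 and 85.4, a log2 change of 0.67 (SE 0.25). Spcs2 had 25.8, 23.6 and 25.01 against 27.2, 42.0 and 28.7 FPKM (0.36, SE 0.19). Both were highest in replicate 2, and without that library the changes were 0.44 for Spcs1 and 0.17 for Spcs2.

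Among the prolyl isomerases, which speed the turning of proline bonds, Fkbp11 had the largest log2 change of all members. Fkbp11 (ENSMUSG00000003355, chromosome 15, 98724366 to 98728198) was low, with WT values of 3.43, 3.70 and 2.41 FPKM that rest on 100 to 170 fragments, beside Zeb1Prx1 values of 7.68, 9.60 and 11.2 that rest on 334 to 468. Mean FPKM was 2.99-fold that of WT and the log2 change was 1.33 (SE 0.19, 95% interval 0.87 to 1.78, adjusted p = 0.229). The lowest Zeb1Prx1 library was more than double the highest WT library, and the log2 change lay between 1.19 and 1.55 under every alternative run. Fkbp10 had 80.3, 71.7 and 55.0 against 103.5, 100.04 and 126.6 FPKM (log2 change 0.67, SE 0.20, adjusted p = 0.275). Fkbp7 had 15.3, 23.8 and 24.996 against 25.02, 38.7 and 59.0 FPKM (0.85, SE 0.33), with Zeb1Prx1 replicate 1 and WT replicate 3 nearly equal, and its change was 0.55 without Zeb1Prx1 replicate 3. Fkbp2 had 39.8, 35.7 and 36.5 against 41.1, 91.6 and 47.0 FPKM (0.58, SE 0.30), and its change was 0.23 without Zeb1Prx1 replicate 2.

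Serpinh1, the collagen-specific chaperone HSP47 (ENSMUSG00000070436, chromosome 7, 99345376 to 99353239), was among the most abundant members and higher in each mutant library. It had WT values of 292.8, 281.2 and 341.8 FPKM beside Zeb1Prx1 values of 519.9, 422.7 and 569.0, a log2 change of 0.72 (SE 0.21, adjusted p = 0.275). Fkbp9, Fkbp14 and the cyclophilin gene Ppib overlapped between the genotypes. Their highest library was Zeb1Prx1 replicate 3 in each case, at 184.6, 29.6 and 43.8 FPKM beside WT ranges of 74.7 to 104.0, 12.6 to 19.4 and 23.2 to 28.7.

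The disulfide isomerases form and rearrange the bonds between cysteines. P4hb, protein disulfide isomerase and also the beta subunit of collagen prolyl 4-hydroxylase (ENSMUSG00000025130, chromosome 11, 120560298 to 120573253), was the most abundant of these per length in both genotypes, with WT values of 367.6, 434.6 and 330.7 FPKM beside Zeb1Prx1 values of 492.7, 467.7 and 678.1 (log2 change 0.52, SE 0.24, adjusted p = 0.349). Pdia6, which carries an ERSE, had 76.2, 65.2 and 67.0 against 83.9, 123.2 and 132.7 FPKM (0.67, SE 0.21, adjusted p = 0.281). Both were higher in every mutant library. Pdia3, the partner of the lectin chaperones, overlapped by a small margin, with 236.7 to 275.0 FPKM in WT and 271.9 to 373.2 in Zeb1Prx1. Pdia4 had 82.8 to 85.7 in WT and 81.5 to 130.0 in Zeb1Prx1, with replicate 2 below all WT libraries.

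**Figure D3:**
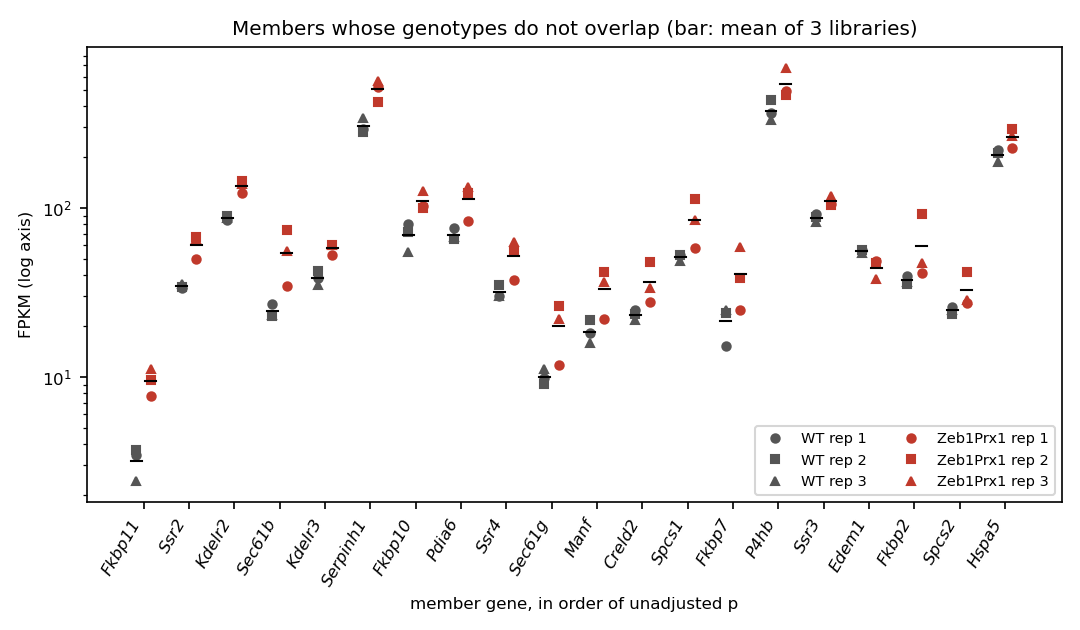
FPKM (log axis) of the 20 members whose genotypes do not overlap, in order of unadjusted p; grey symbols are WT and red symbols Zeb1Prx1 libraries, with one shape per replicate number and a bar at the mean of 3 libraries. Zeb1Prx1 lies above WT for 19 of them and below for Edem1. For Fkbp7, Manf, Hspa5, Fkbp2, Sec61g and Spcs2 the nearest libraries almost touch.

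The general chaperones of the ER lumen had smaller log2 changes. Hspa5, the Hsp70 chaperone BiP and the standard readout of the unfolded protein response (ENSMUSG00000026864, chromosome 2, 34771970 to 34777547), had WT values of 220.7, 211.1 and 188.1 FPKM beside Zeb1Prx1 values of 227.6, 295.8 and 268.0, a log2 change of 0.35 (SE 0.19, 95% interval -0.10 to 0.80, adjusted p = 0.395). Its genotypes did not overlap, although replicate 1 was close to WT. Hsp90b1 (GRP94) had 149.7, 129.2 and 116.2 against 145.1, 174.9 and 155.2 FPKM (0.27, SE 0.18) and overlapped. Calr, the lectin chaperone calreticulin, had 335.7, 338.6 and 293.9 against 324.8, 342.6 and 439.1 FPKM (0.18, SE 0.21), with replicate 3 alone clearly above WT and a change of 0.051 without it. Canx had 104.0 to 121.2 FPKM in WT and 105.7 to 116.6 in Zeb1Prx1, the Zeb1Prx1 values lying within the WT range. Hyou1, an Hsp110-type chaperone, had 24.0 to 30.1 and 22.6 to 35.7.

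Of the co-chaperones and partners, the small secreted stress protein genes Manf and Creld2 stood higher. Manf had WT values of 18.1, 21.6 and 15.8 FPKM beside Zeb1Prx1 values of 21.9, 41.7 and 36.3 (log2 change 0.77, SE 0.26), and Zeb1Prx1 replicate 1 was almost level with WT replicate 2. Creld2 had 24.7, 23.7 and 21.6 against 27.6, 47.8 and 33.5 FPKM (0.58, SE 0.22), and its change was 0.37 without Zeb1Prx1 replicate 2. Adjusted p was 0.29 for Manf and 0.302 for Creld2. The J-domain genes Dnajb9, Dnajb11 and Dnajc3, whose products steer BiP, overlapped between genotypes, with Zeb1Prx1 ranges of 20.4 to 27.2, 39.6 to 54.8 and 30.6 to 49.99 FPKM against WT ranges of 16.6 to 23.4, 33.3 to 41.8 and 33.7 to 43.2. Sdf2l1 had 40.4 to 46.1 in WT and, in Zeb1Prx1, 35.3, 73.7 and 48.6, so that replicate 1 was the lowest and replicate 2 the highest of all 6 libraries.

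The sensors and transcription factors of the response gave no common direction, and their gene-level FPKM measures neither kinase activity nor Atf6 cleavage nor Xbp1 splicing. Xbp1 had WT values of 70.3, 70.7 and 61.0 FPKM beside Zeb1Prx1 values of 69.1, 77.8 and 78.6 (log2 change 0.16, SE 0.15, 95% interval -0.21 to 0.52), and its change was -0.011 when each library was set to the same FPKM sum. Atf6 had 11.5, 14.1 and 12.1 against 12.1, 5.90 and 9.001 FPKM (-0.49, SE 0.24, adjusted p = 0.369). Replicates 2 and 3 were below WT and replicate 1 was not, and the change was -0.24 without replicate 2. Ern1 had 7.10, 9.41 and 7.74 against 9.68, 3.69 and 7.202 FPKM (-0.28, SE 0.30), and without Zeb1Prx1 replicate 2 the log2 change was 0.051. Eif2ak3 had 7.22, 9.80 and 7.63 against 9.22, 7.25 and 10.97 FPKM (0.13, SE 0.19), and its sign turned with equal FPKM sums and when macrophage marker level was a covariate (-0.017 and -0.048).

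Creb3l1 and Creb3l2 encode membrane-bound transcription factors that act in secretory bone and cartilage cells. Creb3l1 had WT values of 29.8, 43.3 and 32.2 FPKM beside Zeb1Prx1 values of 58.0, 27.9 and 39.4 (log2 change 0.20, SE 0.29). Its highest and its lowest library were both Zeb1Prx1, and the change was -0.062 without Zeb1Prx1 replicate 1. Creb3l2 had 8.97, 13.8 and 10.3 against 13.5, 5.995 and 18.6 FPKM (0.08, SE 0.38), with the same kind of spread. Its sign turned without WT replicate 1, Zeb1Prx1 replicate 1 or Zeb1Prx1 replicate 3 (-0.041, -0.019 and -0.24).

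Of the exit and retrieval genes, the KDEL receptors did not overlap between genotypes. Kdelr2, a receptor that returns chaperones bearing the KDEL signal (ENSMUSG00000079111, chromosome 5, 143403838 to 143421901), had WT values of 85.4, 89.1 and 86.8 FPKM beside Zeb1Prx1 values of 123.2, 144.5 and 138.9, a log2 change of 0.63 (SE 0.15, adjusted p = 0.264). Kdelr3 had 38.4, 42.4 and 35.1 against 52.9, 60.2 and 60.8 FPKM (0.57, SE 0.15, adjusted p = 0.273). Both receptor genes were clearly above WT in all 3 mutant libraries, replicate 1 included. The COPII coat genes Sec23a and Sec24d and the collagen export receptor Mia3 (TANGO1) overlapped, with 27.9 to 42.1, 16.2 to 35.4 and 22.7 to 28.6 FPKM in Zeb1Prx1 against 24.6 to 31.7, 24.0 to 30.5 and 23.5 to 26.1 in WT. Sec24d and Mia3 were each lowest in Zeb1Prx1 replicate 2.

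Among the genes of ER-associated degradation was the one member with deposited values lower in every mutant library. Edem1, a mannosidase-like factor that hands misfolded glycoproteins to degradation (ENSMUSG00000030104, chromosome 6, 108828641 to 108859356), had WT values of 56.2, 56.6 and 53.8 FPKM beside Zeb1Prx1 values of 48.3, 47.1 and 37.7, a log2 change of -0.32 (SE 0.16, 95% interval -0.70 to 0.05, adjusted p = 0.361). The WT libraries lay within 3 FPKM of each other. Its log2 change was -0.21 without Zeb1Prx1 replicate 3, -0.49 with equal FPKM sums and -0.21 with the length trend removed, where its genotypes overlapped. The related Edem2 had 13.7 to 16.9 against 15.4 to 19.0 FPKM. Sel1l and Syvn1, the core of the ubiquitin ligase complex, had 27.3 to 32.2 and 14.6 to 19.0 in WT against 18.6 to 28.0 and 14.6 to 19.6 in Zeb1Prx1, and Derl1 50.8 to 53.6 against 51.1 to 71.1. These 4 genes overlapped between genotypes.

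The members with an ERSE or ERSE-II match, Dnajb11 included, were not those with the largest log2 changes. Of these 10 genes 9 were tested, with a median log2 change of 0.27 and 3 (Hspa5, Pdia6 and Creld2) apart between genotypes. The 30 members whose windows lacked both motifs had a median of 0.36, with 12 higher and 1 lower without overlap, and included Fkbp11 and Sec61b. Over all tested genes, 12.6% were higher and 11.8% lower without overlap. Gene length was not taken into account in these counts. For 9 members, among them Kdelr2 and Ssr2, no window was given. These groups were set side by side after their values were seen, and their difference was not tested.

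The log2 changes differed by gene length, among all genes and among the members. The 9 tested members of up to 2000 bases had a median log2 change of 0.63 (0.27 for all tested genes of this length), and 8 of them were higher without overlap, against 22.9% of all genes of that length. Above 2000 and up to 5000 bases the median was 0.33 for 28 members (0.08 for all genes), with 11 higher without overlap, against 14.3%. Over 5000 bases it was 0.06 for 11 members (-0.15 for all genes), with 0 higher and 1 lower (9.09%), against 4.81% and 20.3% of all genes of that length. With the length trend of each library removed, chosen after seeing the data, 15 of 48 members (31.2%) were higher without overlap and 0 lower, beside 11.8% and 11% of all genes, and the median log2 change was 0.28. That correction lowered short members most: the log2 change became 0.76 for Sec61b, 0.39 for Kdelr2 and Spcs1, 0.29 for Creld2 and 0.28 for Kdelr3 and Fkbp2, while that of Fkbp11 was 1.196. Without Zeb1Prx1 replicate 2 there were 29 members higher without overlap (60.4%), where 17.2% of all genes were.

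**Figure D4:**
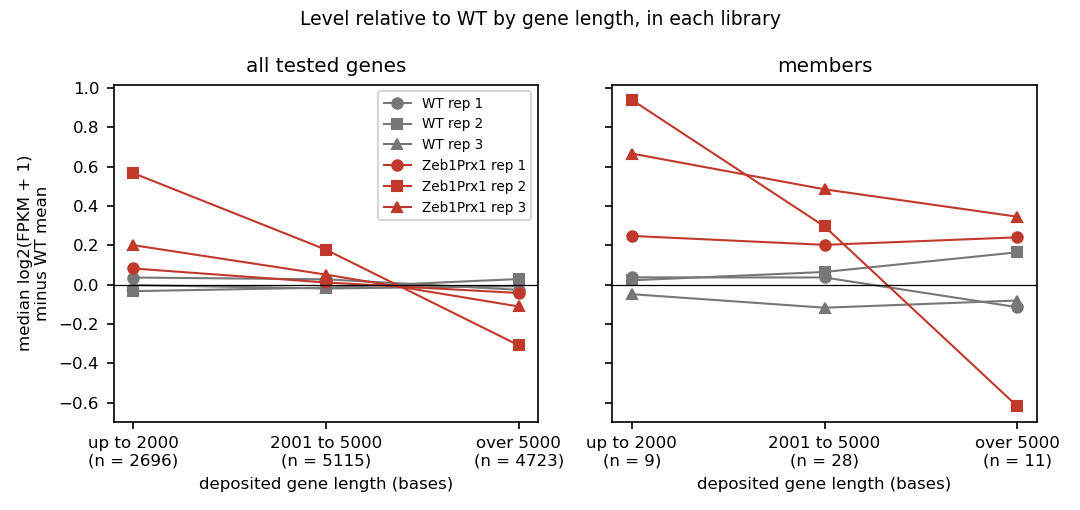
Median log2(FPKM + 1) minus the WT mean in each library (lines; grey WT, red Zeb1Prx1), by deposited gene length in bases, for all tested genes (left) and for the tested members (right). Zeb1Prx1 replicate 2 falls from 0.57 to -0.31 across the length classes among all genes and from 0.94 to -0.62 among members, while replicates 1 and 3 keep the members above 0 in every class.

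Other genes of the same pathway, from a list of 114 in the table with 112 tested, leaned the same way. Zeb1Prx1 was higher without overlap for 40 (35.7%) and lower for 5 (4.46%), beside 12.6% and 11.8% of all tested genes. The median log2 change was 0.22, beside 0.02, and limma called 0 in either direction. At an unadjusted limma p under 0.05, 24 (21.4%) were higher and 0 lower, beside 8.15% and 6.98% of all tested genes. Translocation, cleavage and N-glycosylation held 16 of 29 higher without overlap (55.2%) and exit and retrieval 11 of 27 (40.7%). Folding held 6 of 27 (22.2%), degradation 4 of 17 (23.5%) and sensors with their response genes 3 of 12 (25%). These shares do not take gene length into account. The oligosaccharyltransferase genes Ostc and Ost4 had 30.7 ± 1.09 and 13.1 ± 1.88 FPKM in WT (mean ± SD, n = 3 per genotype) against 57.3 ± 12.3 and 30.0 ± 10.7 in Zeb1Prx1. The cargo receptor genes Tmed9 and Tmed3 had 41.9 ± 1.98 and 30.3 ± 4.52 against 68.9 ± 13.3 and 65.1 ± 22.8, and Cnpy2 and the glucosidase subunit Prkcsh 26.7 ± 3.28 and 30.3 ± 3.62 against 49.2 ± 14.5 and 47.5 ± 8.93. Of degradation, Selenos had 42.7 ± 3.83 against 74.5 ± 16.9 and Erlec1, which overlapped, 15.6 ± 2.32 against 21.0 ± 5.15. The stress-response genes Ddit3 (CHOP) and Herpud1 had 19.5 ± 0.325 and 37.0 ± 5.60 against 38.7 ± 15.9 and 55.2 ± 9.03.

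No gene of the marker lists of other cells passed the test, and their summed levels were as follows. The summed FPKM of 15 chondrocyte genes was 14.8 to 206 in WT, with 2 to 4 of them at 0. In Zeb1Prx1 it was 152 to 2450, with 0 at 0. Comp alone had 3.13 to 195 FPKM in WT and 78.3 to 965 in Zeb1Prx1, and overlapped between the genotypes. All 6 tested chondrocyte genes had a log2 change above 0. Of these, Col11a2 and Acan were under 1 FPKM in every WT library. They passed the filter only through the Zeb1Prx1 libraries, so their direction was set in advance. For 12 osteoblast genes the sum was 1855 to 4169 against 2856 to 4516, of which Spp1 alone made up 1802 to 4127 and 2669 to 4408. Of the 9 tested, 8 had a log2 change above 0, and 3 (33.3%), Ibsp, Omd and Dlx5, were higher without overlap. The 20 macrophage and monocyte genes, present in all 6 sorted libraries, summed to 14307 to 17381 in WT and 11786, 23745 and 13722 in Zeb1Prx1. Lyz2 alone had 8118 to 10490 FPKM in WT and 7034, 16368 and 9156 in Zeb1Prx1. Of the 20, 14 had a log2 change below 0. Without overlap 6 (30%) were lower, beside 11.8% of all tested genes, and 0 higher. For 10 stromal genes, among them Col1a1 and Prrx1, the sum was 2267 to 3336 against 3028 to 5161, with 1432 to 1829 against 1560 to 3368 for Col1a1 alone. Of the 9 tested stromal genes, 6 had a log2 change above 0 and 3, Prrx1 included, below. Without overlap 1 was higher, Col1a2, and 1 lower, Pdgfrb (11.1% each), beside 12.6% and 11.8% of all tested genes. At an unadjusted limma p under 0.05, 0 were higher and 2, Pdgfrb and Thy1, lower, beside 8.15% and 6.98%. With macrophage marker level as a covariate, the median log2 change of the members was 0.29, beside 0.03 for all tested genes. With it 34 of 48 members were above 0, against 43 without it. At an unadjusted limma p under 0.05 there were then 19 members, 16 of them higher, where 29.6% of all genes were. The parts of cartilage and bone cells in the members' levels were not tested. Of 8 plasma cell and B lymphocyte genes, cells known for abundant ER chaperones, Mzb1 and Igkc were among those at 0 FPKM in all 6 libraries and 3 to 5 were at 0 in each. Sdc1, which stromal cells also express, made up nearly all of their sum of 32.7 to 48.99 in WT and 55.2 to 76.5 in Zeb1Prx1.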

How the data were processed

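RNA-seq libraries of 3 WT and 3 Zeb1Prx1 samples were compared. The deposited table holds FPKM per gene and library as the authors computed them, with gene names, lengths and mm10 coordinates per the file headers and the submitters' processing notes; for the aligner, the counting tool and strandedness the sources used here give nothing, so overlapping or antisense genes cannot be told apart. FPKM times length was a whole multiple of 1 step for 127408 of 127408 non-zero values (relative tolerance 1e-06), which gave fragments. Median-of-ratios factors of the deposited values were 1 in every library.

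Genotypes were compared in R 4.3.3 with limma 3.58.1, fitted to log2(FPKM + 1) without a block, with the variance trend on mean level, Benjamini-Hochberg adjustment over the 12534 genes with at least 1 FPKM in at least 3 libraries, and a threshold of 0.05. The fit was also run on simulated counts with a common dispersion, no length trend and no outlying library. Those settings differ from the data, so that run does not show what the fit can find here. Members, lists and tests were chosen with earlier results of these data known. Values per library were given for members that do not overlap (at most 20), the 6 sensors and transcription factors, Hspa5, Hsp90b1, Calr, Serpinh1 and P4hb; Sec61a1 and Sdf2l1 were added after their values were seen. Of the other ER genes, the 2 of each role with the smallest unadjusted p were named. The name of 1 marker gene is not reported here. Identifiers of 49 members were in GENCODE M21, 48 with the same coordinates. Alternatives were other pseudocounts (0.1 and 0.5), other filters (none, or a mean of at least 5 FPKM), equal FPKM sums, median-of-ratios scaling, the replicate block, no trend, library weights, voom, the macrophage covariate and leaving out each library; removal of the length trend, and the count of members without overlap under other settings, were added after seeing the data.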

Additional observations from a re-analysis of the deposited data

How the results depend on the processing

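No alternative without library weights called a member past the threshold. Library weights, lowest for Zeb1Prx1 replicate 2 (0.226) and highest for Zeb1Prx1 replicate 3 (2.82), called 447 genes, 7 of them members (Serpinh1, Fkbp10, Fkbp11, Sec61b, Ssr2, Kdelr2 and Kdelr3, all higher, limma adjusted p 0.0361 to 0.0498), with 28 members (26 higher) and 30.8% of all genes at an unadjusted p under 0.05. With an equal FPKM sum the members' median log2 change was 0.16 while that of all genes moved from 0.02 to -0.12, and 14 members were higher without overlap against 7.93% of all genes. Leaving out each library gave 0 to 1 genes past the threshold (1 without Zeb1Prx1 replicate 2), 7 to 19 members at an unadjusted p under 0.05 (7 without Zeb1Prx1 replicate 3, 8 without WT replicate 1 or 3, 9 without WT replicate 2) where 9.1% to 23% of all genes were, 20 to 29 members higher without overlap where 15.6% to 21.8% of all genes were, and member medians of 0.26 to 0.43. Of the 28 members given with a log2 change, 23 kept their sign throughout. The sign turned for Xbp1 with an equal FPKM sum (-0.011), for Eif2ak3 and Creb3l2 with an equal sum (-0.017 and -0.065) and with the macrophage covariate (-0.048 and -0.43), and for Creb3l1 with that covariate (-0.054). Without single libraries the log2 change was -0.54 to 0.051 for Ern1, -0.062 to 0.45 for Creb3l1 and -0.24 to 0.51 for Creb3l2. The cause was not tested. With the replicate block, 14 members and 10.7% of all genes had an unadjusted p under 0.05, 0 were past the threshold and the median was 0.32. Deviations of same-numbered libraries from their genotype mean had correlations of 0.0289, -0.413 and 0.0798. With 3 libraries per genotype these cannot decide whether same-numbered libraries were handled together, which the labels do not say. Derl3 was too low to be tested.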

Other observations

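The library in which a member was highest was Zeb1Prx1 replicate 3 for 24 of the 49 members, replicate 2 for 17 and replicate 1 for 4, and a WT library for 4. The lowest library was WT replicate 3 for 19 members and Zeb1Prx1 replicate 2 for 12. As a share of all FPKM in a library, the members made up 1.36% of Zeb1Prx1 replicate 1, 1.12% of replicate 2 and 1.52% of replicate 3, beside 1.08% to 1.13% in WT.

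Zeb1 is known to bind E-boxes with the letters CACCTG. On both strands these letters were in the promoter window of 9 of 40 members (22.5%) and of 22.6% of all 27025 genes with a window. The members with a match were Derl3, Dnajb9, Eif2ak3, Fkbp2, Hsp90b1, Ppib, Sec24d, Syvn1 and Xbp1. Fkbp2 was the one among them whose genotypes did not overlap.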
